A study of Mus musculus with 14 samples.

Results

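The places bound by BCOR and by Otx2 in the embryonic mouse retina were compared in a pair of CUT&RUN peak lists, 1 library for each factor, made from retina at embryonic day 14 (E14). CUT&RUN uses an antibody to tether a nuclease at the protein of interest, and sequences the short DNA fragments that the nuclease cuts free. A peak is a stretch of genome where the authors' peak caller found more fragments than the background it estimated. All deposited peaks on chromosomes 1 to 19 were taken, 10736 for BCOR and 8497 for Otx2. Together these were 19233 of the 105509 peaks that the series' 10 CUT&RUN lists held on those chromosomes. A BCOR peak was called shared if it overlapped an Otx2 peak by 1 bp or more, and the same rule was applied to Otx2 peaks.

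The study followed these factors through retinal development in CD1 mice. CUT&RUN was done on retina at E14, on the day of birth (P0, with 2 libraries per factor) and in the adult (with 2 libraries per factor). No gene was altered and no agent was given in these groups as far as the labels say. How many embryos went into each E14 library is not stated in the labels. The series also holds 4 RNA samples of sorted retinal cells with or without knockdown of Bcor, which were not used.

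BCOR is a corepressor. It does not bind DNA by sequence itself, is brought to DNA by transcription factors, and forms part of a variant Polycomb complex that places ubiquitin on histone H2A. Otx2 is a homeodomain transcription factor that binds DNA directly. In the retina it is needed for photoreceptor and bipolar cell fate, and Crx, a closely related factor of photoreceptors, recognises nearly the same motif. The series' title calls BCOR a corepressor of OTX2 and CRX, and the comparison of both lists at one stage asks where in the genome the proteins lie together. For the second target the samples are labelled Otx2, but the series text says Otx2/Crx. Peak lists hold no expression, so the labelled tissue could not be checked against marker genes here. Retina is a mixture of cells, and a peak shared by both factors may come from the same cells or from different ones.

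With 1 library per factor at E14, the factor and the library cannot be told apart, and no test between factors was possible. The read depth of the libraries is unknown. Intervals below are 95% intervals, Wilson's for shares, Newcombe's for differences of shares and exact binomial for medians. Intervals of a difference between medians were formed from the opposite limits of both medians' intervals. They are thus wider than 95% intervals of that difference. All intervals cover counting error over peaks only. Peaks of a library are not replicates of a condition. The deposited lists had no repeated and no overlapping intervals. BCOR peaks covered 4.86 Mb with a median width of 407 bp, and Otx2 peaks covered 3.10 Mb with a median width of 323 bp. The fold of a peak, the authors' ratio of signal to background at its summit, ran from 1.50 to 46.4 in the BCOR list (median 5.38) and from 1.59 to 50.1 in the Otx2 list (median 5.95).

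Of the 10736 BCOR peaks, 5557 overlapped an Otx2 peak, which is 51.8% (50.8 to 52.7). The other 5179 did not. Of the 8497 Otx2 peaks, 5580 overlapped a BCOR peak, which is 65.7% (64.7 to 66.7), and 2917 did not. Shared places were nearly always a meeting of 1 peak with 1 peak. Among shared BCOR peaks, 5518 held a single Otx2 peak, 38 held 2 and 1 held 3. Among shared Otx2 peaks, 5563 held a single BCOR peak and 17 held 2. With nearly equal numbers of shared peaks, the shorter Otx2 list must have the higher share. At equal list lengths, with the 4000 best peaks of each list by q-value, the shares were 58.7% for BCOR and 58.8% for Otx2. With nearly all meetings of 1 peak with 1 peak, these shares had to be nearly equal and do not compare the factors. Counted in bases, 1900148 bp lay in both lists, which was 39.1% of the BCOR bases and 61.4% of the Otx2 bases.

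The overlap limit of 1 bp divided the lists cleanly. Only 30 of the 5557 shared BCOR peaks overlapped their Otx2 partner by less than 50 bp, and 95 by less than 100 bp. On the other side of the limit, 21 unshared BCOR peaks and 18 unshared Otx2 peaks had an edge within 50 bp of the other factor's nearest peak. Within 1000 bp, edge to edge, lay 258 unshared BCOR peaks (4.98%) and 165 unshared Otx2 peaks (5.66%). Most unshared peaks were therefore far from the other factor's list. From summit to summit the median distance was 64.4 kb (61.6 to 67.6) for BCOR and 57.9 kb (53.2 to 61.8) for Otx2. For comparison, the nearest further Otx2 peak of a shared BCOR peak, beyond its own partner, lay at a median of 55.9 kb. For a shared Otx2 peak the nearest further BCOR peak lay at 42.5 kb.

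The strongest peaks were the ones most often shared, in both lists. When the BCOR list was divided into 4 parts by fold, the share with Otx2 was 23.5% in the lowest, then 41.9%, 59.0% and 84.8% in the highest. In the Otx2 list the corresponding shares with BCOR were 44.8%, 57.6%, 71.9% and 88.5%. None of the intervals of neighbouring parts overlapped in either list. Ranked by the authors' q-value, 942 of the best 1000 BCOR peaks (94.2%) and 951 of the best 1000 Otx2 peaks (95.1%) were shared. At the other end, 163 of the last 1000 BCOR peaks (16.3%) and 403 of the last 1000 Otx2 peaks (40.3%) were shared. Weak BCOR peaks were thus unshared more often than weak Otx2 peaks. The lists they could meet differed in length, however, with 8497 Otx2 peaks against 10736 BCOR peaks. Median folds were 6.42 (6.37 to 6.50) for shared and 4.71 (4.65 to 4.78) for unshared BCOR peaks. For Otx2 they were 6.58 (6.51 to 6.67) and 5.10 (5.03 to 5.17).

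**Figure D1:**
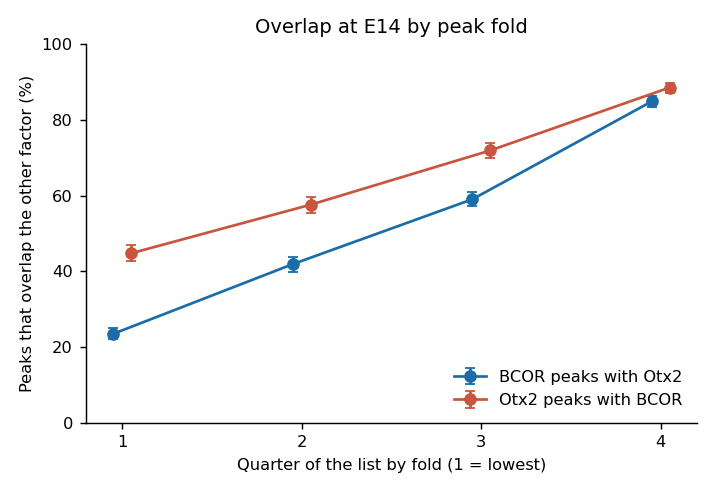
Share of E14 peaks that overlap a peak of the other factor (vertical axis, percent) in 4 parts of each list by the authors' fold (horizontal axis, lowest to highest). Points are shares of the single library of each factor and bars are 95% Wilson intervals; BCOR goes from 23.5% to 84.8% and Otx2 from 44.8% to 88.5%.

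Shared peaks were also wider. The median width of BCOR peaks was 489 bp (482 to 496) with Otx2 and 331 bp (326 to 335) without it, a difference of 158 bp. Otx2 peaks had a median width of 348 bp (343 to 352) with BCOR and 275 bp (269 to 280) without it, a difference of 73 bp. A wide peak can meet another peak more easily than a narrow one, and width went with fold, so the widths were also compared among peaks of like fold. Within the 4 parts by fold, shared BCOR peaks were wider by 60.5, 95, 103 and 86 bp. Shared Otx2 peaks were wider by 34, 28, 7.5 and 27.5 bp, and in the upper parts the intervals of the medians overlapped. There the medians were 347 bp (342 to 356) with and 339.5 bp (325 to 365) without BCOR in the second highest part, and 416 bp (405 to 428) and 388.5 bp (352 to 425) in the highest. On average over the parts the difference was 86.1 bp for BCOR and 24.2 bp for Otx2, smaller than in the whole lists.

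Fold went with sharing among peaks of like width, and width went with it among BCOR peaks of like fold. Among the narrowest BCOR peaks, the share with Otx2 was 16.1% in the lowest part by fold and 72.9% in the highest. Among the widest BCOR peaks it was 46.4% and 88.9%. For Otx2 the same values were 37.0% and 76.4% among the narrowest peaks, and 61.1% and 89.3% among the widest. Width made less difference for Otx2 peaks of higher fold. From the narrowest to the widest, the share was 66.3%, 72.8%, 74.7% and 71.5% in the second highest part by fold, and 76.4%, 85.0%, 92.6% and 89.3% in the highest. Defining a shared peak by summits within 100 bp, a rule on which width bears less directly, left a width difference of 112 bp for BCOR and 31 bp for Otx2.

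**Figure D2:**
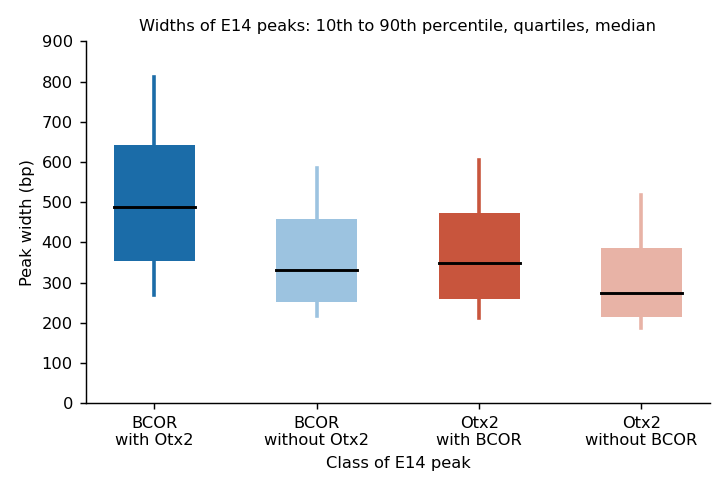
Widths of E14 peaks in bp (vertical axis) for BCOR and Otx2 peaks with and without the other factor (horizontal axis). Boxes are quartiles, black lines medians and thin lines the 10th to 90th percentiles over the peaks of 1 library; medians are 489, 331, 348 and 275 bp from left to right.

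Where both factors had a peak, their summits lay close together. Each of the 5557 shared BCOR peaks was paired with the Otx2 peak it overlapped whose summit was nearest. The median distance between summits was 57 bp (54 to 59), with quartiles of 23 and 124 bp and a largest distance of 1093 bp. Summits lay within 25 bp of each other in 27.9% of pairs, within 50 bp in 46.3%, within 100 bp in 68.4% and within 200 bp in 88.3%. In 111 pairs (2.00%) both summits were on the same base. The Otx2 summit lay to the left of the BCOR summit in 49.7% of pairs and to the right in 48.3%, so it had no preferred side on the reference strand.

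These distances are near the scale on which the assay places a summit. For replicates of a single factor the median distance between summits of overlapping peaks was 46 bp for BCOR and 41 bp for Otx2 at P0, and 40 and 36 bp in the adult. Between the factors it was 50 to 57 bp over the 4 pairings of P0 libraries and 42 to 50 bp over those of adult libraries. The E14 value of 57 bp was at the top of the P0 range. It is longer than each of the replicate values, and 1 library per factor gives no such scale at E14 itself.

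**Figure D3:**
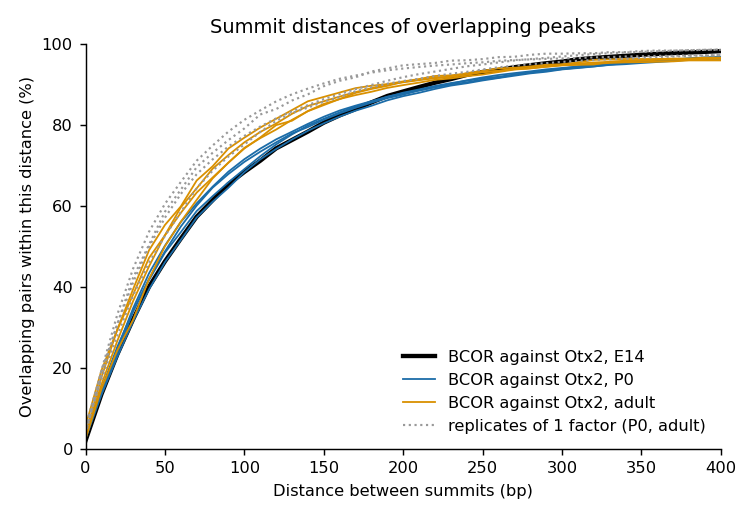
Percent of overlapping peak pairs (vertical axis) whose summits lie within a given distance in bp (horizontal axis), for BCOR against Otx2 at E14 (1 pairing), P0 and adult (4 pairings of libraries each), and for replicates of the same factor. At 50 bp the E14 curve is at 46.3%, and the dotted curves of replicates run from 52.6% to 60.5%.

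The closest summits belonged to the strongest peaks. In the 4 parts of the BCOR list by fold, lowest first, the median distance was 94.5, 83, 62.5 and 39 bp. By fold of the Otx2 peak it was 88, 75, 61 and 35 bp. Width made less difference. In the 4 parts of the pairs by BCOR width, narrowest first, the medians were 56, 53, 57 and 62 bp. The share of summits within 100 bp was 72.2%, 70.7%, 67.1% and 63.5% in these parts, so distant summits were somewhat more frequent in wide BCOR peaks. The folds of both peaks of a pair went together, with a Pearson r of 0.58 on the log2 scale and a Spearman rho of 0.51 over the 5557 pairs. Pairs within a genome share local DNA properties and are not independent, so these are descriptions only.

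The BCOR peak of a pair was usually the wider. It was wider in 4198 pairs (75.5%), and the median difference was 116 bp. The Otx2 peak lay wholly inside the BCOR peak in 47.6% of pairs, the BCOR peak inside the Otx2 peak in 10.9%, and the edges crossed in 41.5%. The BCOR fold was the higher in 44.3% of pairs, a comparison of the authors' values between libraries of unknown depth. Each summit lay inside the other factor's peak in 86.4% of pairs, and neither did in 1.89%. The nesting at E14 differed from that of the later stages. Otx2 peaks lay inside BCOR peaks in 14.1% to 19.4% of pairs at P0 and in 5.91% to 16.0% in the adult. There the BCOR peak lay inside the Otx2 peak in 42.4% to 79.8%. The median width of BCOR peaks was 407 bp at E14 and 338 and 388.5 bp in the P0 libraries, while that of Otx2 peaks was 323 bp at E14 and 399 and 412 bp at P0. Stage and library cannot be told apart in this comparison.

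The median distance to the nearest other BCOR peak was 42.2 kb (40.3 to 44.6) for shared and 46.3 kb (43.7 to 48.7) for unshared BCOR peaks. For Otx2 peaks these distances were 55.1 kb (52.6 to 57.4) and 51.5 kb (47.4 to 56.8). The intervals of shared and unshared peaks overlapped for both factors, which does not show that the medians are equal. With the 4000 best peaks of each list by q-value, however, the distance was shorter for shared Otx2 peaks by 17.4 kb. The interval of that difference, formed from opposite limits, ran from −32.4 to −4.94 kb and did not hold 0. Close neighbours within 5 kb were somewhat more frequent among unshared peaks, at 10.8% against 9.05% for BCOR and 10.1% against 7.87% for Otx2. Within 100 kb the order was the opposite for BCOR, with 75.6% (74.5 to 76.7) of shared and 71.8% (70.6 to 73.0) of unshared peaks. For Otx2 the shares within 100 kb were 68.5% (67.3 to 69.8) and 67.0% (65.2 to 68.6).

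Neighbouring Otx2 peaks tended to be of the same class. An Otx2 peak was shared in 71.0% of cases (69.8 to 72.2) when the nearest Otx2 peak was shared and in 55.6% (53.8 to 57.4) when it was not. For neighbours within 10 kb these shares were 69.9% and 46.6%. For BCOR peaks the contrast was smaller, at 53.8% (52.5 to 55.1) and 49.5% (48.2 to 50.9), and within 10 kb at 53.3% and 47.4%.

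The overlap differed little between chromosomes. The share of BCOR peaks with Otx2 ran from 47.2% on chromosome 13 to 55.6% on chromosome 7, and the intervals of 17 of the 19 chromosomes held the value of the whole list. The share of Otx2 peaks with BCOR ran from 58.7% on chromosome 18 to 72.3% on chromosome 7, and 16 of 19 intervals held the value of the whole list. BCOR peaks outnumbered Otx2 peaks on all 19 chromosomes, and the Otx2 share was above the BCOR share on all 19. The second count follows from the first, since both factors had nearly equal numbers of shared peaks. The density of peaks varied more than the sharing. Chromosome 11 was the densest with 7.01 BCOR and 5.41 Otx2 peaks per Mb. Chromosome 14 was the sparsest with 3.24 and 2.62 per Mb.

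Divided into windows of 100 kb, the genome had 3418 windows with 1 shared BCOR peak, 712 with 2 and 143 with 3. The window with the most was chr9:3000001-3100000, at the start of the mm9 chromosome, with 17 shared of 19 BCOR peaks and 20 of 20 shared Otx2 peaks. In that window 16 of the shared BCOR peaks met a peak in all 10 lists of the series, and the median BCOR fold was 3.38. Next came chr17:34000001-34100000, where 7 of 7 BCOR peaks and 7 of 7 Otx2 peaks were shared, and chr5:14900001-15000000, with 7 of 13 BCOR and 7 of 10 Otx2 peaks shared.

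A small set of peaks stood apart in both libraries. A −log10 q-value over 500 was given to 20 BCOR and 24 Otx2 peaks, and all of them were shared. Of the 20 BCOR peaks, 15 lay in the first 100 kb of chromosome 9 that held peaks, and 16 met a peak in all 8 later lists. Without these peaks the shares of the lists stayed within their intervals. More broadly, 521 shared BCOR peaks (9.38%) and 16 unshared ones met a peak in all 8 later lists. With every place found in all 10 lists left out, the share was 49.3% for BCOR and 63.3% for Otx2. Such places are shared by definition, so only shared peaks were left out and both shares could only fall. Whether such places are bound by both proteins or collect fragments in any library was not tested.

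The peaks of highest fold were nearly the same in both libraries. The first was chr6:103599044-103599286 (mm9), 243 bp wide, with a fold of 46.4 for BCOR and 50.1 for Otx2 and summits 2 bp apart. The second was chr12:3109872-3110120, with folds of 43.8 and 46.5 and both summits on the same base. The third was chr9:35112804-35113175, with folds of 38.3 and 40.9 and again a common summit base. The first and the second met no peak in any of the 8 later lists, and the third met 3 later BCOR lists and 1 later Otx2 list. In all, 31 BCOR peaks had a fold over 20, of which 31 were shared and 8 met no later peak. Of 38 Otx2 peaks over that fold, 37 were shared and 11 met no later peak. Among all shared BCOR peaks 4.95% met no later peak. Both edges of a pair agreed within 5 bp in 78 pairs, and 26 of these were among the 100 pairs of highest BCOR fold. The widest peak of both lists was chr17:39979999-39985620, 5622 bp in the BCOR list and 5610 bp in the Otx2 list, with folds of 2.61 and 3.05, found in all 8 later lists. The pair with the farthest summits was at chr13:74666082-74666763, where a BCOR peak of 682 bp overlapped an Otx2 peak of 2014 bp.

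Unshared peaks reached lower folds. The unshared BCOR peak of highest fold was chr10:81326580-81326970, with a fold of 14.02 and the nearest Otx2 summit 133 kb away. It was followed by chr10:121176700-121176977 with 12.3 and chr10:75807746-75808357 with 12.2. Each of the 3 met a peak in both BCOR P0 lists and in 1 later Otx2 list. The widest unshared BCOR peak, chr13:9762648-9764129, was 1482 bp wide with a fold of 4.25, and it met both BCOR P0 lists and no later Otx2 list. The 3 unshared Otx2 peaks of highest fold had folds of 25.3, 17.8 and 17.4 and lay at chr17:68090704-68090880, chr19:45724552-45724739 and chr12:94815435-94815626. They were narrow, at 177, 188 and 192 bp, and none met a peak in any later list. The widest unshared Otx2 peak was chr18:3116995-3118154, with 1160 bp and a fold of 4.28, and it met no later peak either. Genes at these places were not analysed here, since no mm9 annotation was at hand.

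The lists of P0 and adult retina gave a readout that the division of the E14 peaks did not use. Their thresholds were not those of the E14 lists. The largest q-value was 0.0999 and 0.0996 at E14, between 0.0466 and 0.0496 in the P0 lists and the adult Otx2 lists, and 0.248 in both adult BCOR lists. How many peaks are found again depends on these limits and on depth, so the shares below compare classes of E14 peaks within a later list. Of all BCOR E14 peaks, 37.8% met a peak in both BCOR P0 lists. BCOR peaks shared with Otx2 were found there more often. They met a peak in 53.6% of cases in replicate 1 and 77.2% in replicate 2, against 25.1% and 42.4% of unshared BCOR peaks. In both replicates together the shares were 52.1% and 22.3%, a difference of 29.8 percentage points. Shared peaks also had higher folds, and within the 4 parts by fold the difference was 13.8, 11.8, 15.2 and 11.5 points. Shared BCOR peaks were thus found again at P0 more often among peaks of like fold too, by a smaller margin. Within these parts shared BCOR peaks were also wider, and a wider peak meets another more easily. Peaks of like width were not compared here, so sharing and width are not separated.

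Otx2 peaks gave another picture. Of all Otx2 E14 peaks, 76.7% met a peak in both Otx2 P0 lists. Those shared with BCOR were found in 80.6% and 83.4% of cases in replicates 1 and 2, and those without BCOR in 77.4% and 81.3%. In both replicates together the shares were 77.3% and 75.6%, a difference of 1.79 points whose interval ran from −0.10 to 3.71. Among peaks of like fold the difference was −13.1, −9.73, −3.74 and 3.71 points from the lowest part to the highest. Among weak Otx2 peaks, those without BCOR were thus found again more often, and the order was the opposite among the strongest.

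The class at E14 went with the factor found at P0. Of all Otx2 E14 peaks, 35.6% met a peak in both BCOR P0 lists. This was 51.9% of those with BCOR and 4.46% of those without it. Of all BCOR E14 peaks, 52.3% met a peak in both Otx2 P0 lists, which was 77.7% of those with Otx2 and 25.1% of those without it. Counted over both factors, 71.8% of the unshared Otx2 peaks met both Otx2 P0 lists and not both BCOR P0 lists, and 3.74% met all 4. Of the shared Otx2 peaks, 44.4% met all 4 P0 lists and 32.9% met both Otx2 lists and not both BCOR lists. Unshared BCOR peaks were found least: 59.3% met neither factor in both P0 replicates, 18.4% met Otx2 alone, 15.6% BCOR alone and 6.74% both factors. Unshared BCOR peaks thus met both Otx2 P0 lists (25.1%) about as often as both BCOR P0 lists (22.3%). The Otx2 P0 lists were the longest, with 21759 and 24884 peaks against 5292 and 8784 for BCOR at P0, and a longer list is met more easily.

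Both adult BCOR lists, with 1339 and 2445 peaks, were met by 8.59% of BCOR E14 peaks, or 14.9% of those with Otx2 and 1.82% of those without. They were met by 10.2% of Otx2 E14 peaks, or 14.8% of those with BCOR and 1.51% of those without. For BCOR E14 peaks the difference in these lists was 13.1 points over all folds. Among BCOR peaks of like fold it was 4.07, 3.88, 7.08 and 14.8 points, lowest part first. Both adult Otx2 lists were met by 17.6% of BCOR E14 peaks, or 29.7% and 4.60%. They were met by 27.3% of Otx2 E14 peaks, or 29.7% and 22.6%. Among Otx2 peaks of like fold the difference between those with and without BCOR was −5.93, −4.92, −0.88 and 16.9 points, lowest part first. The adult Otx2 replicates did not give the same direction there. In replicate 1 the differences were −6.74, −5.62, −1.05 and 14.1 points, and in replicate 2 they were 10.8, 16.0, 22.8 and 35.8 points. Over all folds the replicates were met by 30.0% and 59.6% of Otx2 peaks with BCOR, and by 23.7% and 32.2% of those without. Across all 8 later lists, 1761 of the 5179 unshared BCOR peaks (34.0%) met none. The same held for 275 of the 5557 shared BCOR peaks (4.95%). For Otx2 it held for 423 of the 2917 unshared peaks (14.5%) and 283 of the 5580 shared ones (5.07%). Unshared peaks had lower folds at E14, and these counts were not compared among peaks of like fold.

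**Figure D4:**
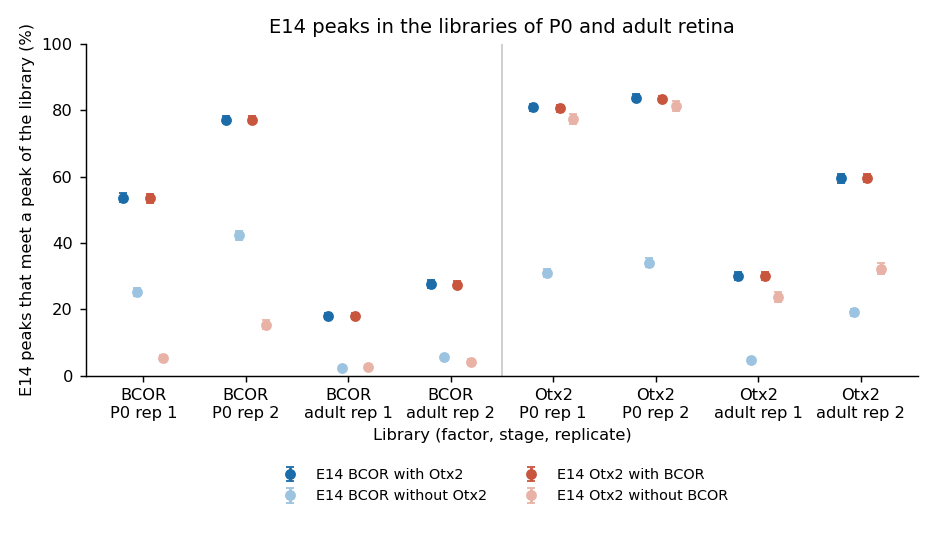
Percent of E14 peaks of each class (vertical axis) that overlap a peak of each P0 or adult library (horizontal axis), with 95% Wilson intervals over peaks. Otx2 peaks without BCOR are at 77.4% and 81.3% in the Otx2 P0 libraries and at 5.42% and 15.3% in the BCOR P0 libraries.

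The Otx2 peaks without BCOR, weak at E14, met strong Otx2 peaks later. Among Otx2 E14 peaks that met an Otx2 P0 peak, the median E14 fold was 7.0 and 6.97 (P0 replicates 1 and 2) for those with BCOR and 5.25 and 5.23 for those without. In the P0 lists the order was the opposite. The P0 peaks met by shared Otx2 peaks had median folds of 8.70 and 8.72, and those met by unshared Otx2 peaks had 12.3 and 13.4. The medians of the whole P0 lists were 6.36 and 6.49. Ranked within their list, the peaks met by unshared Otx2 peaks had a median percentile of 82.4 and 83.4, against 68.4 and 67.4 for those met by shared ones. They were wider too, at 621 and 657 bp against 523.5 and 535 bp.

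The same order held in the adult Otx2 lists. Median folds there were 6.45 and 11.6 (adult replicates 1 and 2) at shared and 10.9 and 14.2 at unshared Otx2 peaks. All 4 later Otx2 libraries thus showed the order, each within its own list. When the E14 peaks were divided into 4 parts by E14 fold, the later fold was higher at unshared peaks in 15 of the 16 comparisons. The exception was the highest part in adult replicate 2, with 14.7 at shared and 14.02 at unshared peaks. In the lowest part by E14 fold, the P0 folds were 6.48 and 6.88 at shared and 9.81 and 10.6 at unshared peaks. The order was the same without the places found in all 10 lists, a cut that removes shared peaks only and leaves the unshared values unchanged. There the P0 medians at shared peaks were 8.16 and 8.28, and those at unshared peaks were 12.3 and 13.4.

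Read from the P0 side, peaks of both classes lay more often among strong Otx2 peaks. In the lowest part of the Otx2 P0 lists by fold, 11.7% and 10.8% of peaks (replicates 1 and 2) met a shared Otx2 E14 peak, and 2.92% and 2.85% met an unshared one only. In the highest part these shares were 34.3% and 29.9% for shared and 24.9% and 23.2% for unshared peaks. The adult Otx2 lists differed from each other in this respect for shared peaks. In replicate 1 these were met by 32.4% of the lowest and 14.9% of the highest part, and in replicate 2 by 14.3% and 29.5%. Unshared peaks were met by 5.03% of the lowest and 17.9% of the highest part in adult replicate 1, and by 3.59% and 11.5% in replicate 2. In the BCOR P0 lists the gradient for unshared BCOR peaks was small, and they were met by 20.4% and 24.2% of the lowest and 27.3% and 23.3% of the highest part. At unshared BCOR peaks the later BCOR folds were near those of the whole list, at 5.46 and 6.13 against list medians of 5.40 and 6.06 at P0. Otx2 P0 peaks at unshared BCOR places had folds of 6.04 and 6.04, below the list medians.

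**Figure D5:**
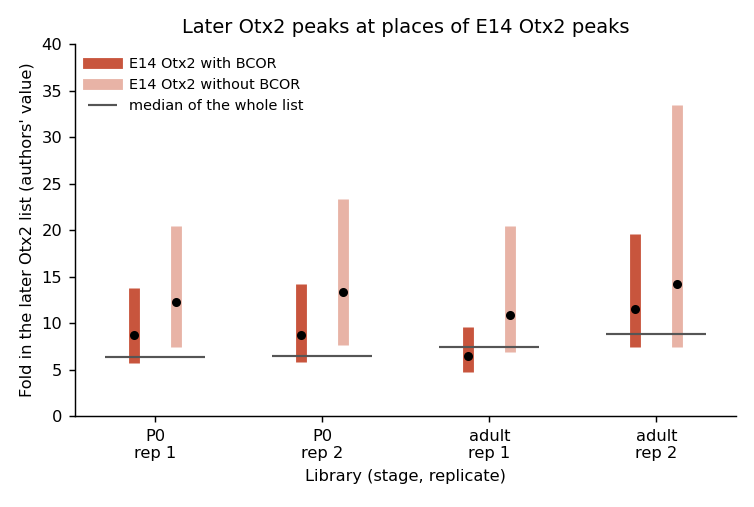
Fold of Otx2 peaks of P0 and adult retina (vertical axis, the authors' value within each list) at places of E14 Otx2 peaks with and without BCOR, for each later library (horizontal axis). Bars are quartiles over peaks, black points medians and grey lines the median of the whole list; at P0 the medians are 8.70 and 8.72 with BCOR and 12.3 and 13.4 without.

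Summits of E14 peaks and their later counterparts of the same factor were closest for shared peaks. For shared Otx2 peaks the median distance to the summit of the Otx2 P0 peak was 44 and 42 bp, and for unshared ones 61 and 59 bp. For shared BCOR peaks the distance to the BCOR P0 summit was 50 and 48 bp, and for unshared ones 73 and 70.5 bp. The shared peaks met at P0 were also the stronger at E14. Their median E14 folds were 7.31 and 6.85 for BCOR, against 5.44 and 5.21 for unshared BCOR peaks. For Otx2 they were 7.0 and 6.97 against 5.25 and 5.23. These distances were not compared among peaks of like fold, so sharing and fold are not separated here. Pairs with summits within 25 bp at E14 were found in both BCOR P0 lists in 55.3% of cases (52.9 to 57.8), and pairs over 100 bp apart in 49.8% (47.5 to 52.1). Among pairs of like fold the order was the opposite in 3 of the 4 parts. From the lowest part to the highest, the shares were 32.8%, 30.0%, 47.7% and 68.1% for the close pairs. For the pairs over 100 bp apart they were 24.6%, 34.8%, 54.2% and 77.4%. Only in the highest part were the intervals separate, at 64.9 to 71.2 for close pairs and 73.3 to 80.9 for the others. In the lower parts they overlapped, so the order there is not settled.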

How the data were processed

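Peaks were called by the authors with MACS2, per the labels, in 1 list per library. The submitters' processing notes also name Bowtie2, deepTools and other tools, and the builds mm9 and mm10. Chromosome names and peak ends of the lists were those of mm9. Each deposited line holds a score, the fold as a ratio to background, −log10 of a p-value and of a q-value, and the summit. Which control and threshold served peak calling is not given in the sources used here. In the E14 lists q-values reached 0.0999 (BCOR) and 0.0996 (Otx2).

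Every peak on chromosomes 1 to 19 was used. Positions were turned to 1-based, and overlaps, widths and summit distances were computed with Python 3.11.15, numpy 2.4.6, pandas 2.3.3 and scipy 1.17.1. Folds served to rank peaks within a list, and the folds of both factors were also compared within overlapping pairs. The overlap code was tested on simulated data for BCOR against Otx2 at E14: of 2000 simulated peaks, 863 had a partner and 863 were recovered. Members, lists and tests were chosen with earlier results of these data known. Named regions were, in each of 4 classes, the 3 peaks of highest fold and the widest, the 3 windows of 100 kb with most shared peaks, the pair with the farthest summits, and the chromosomes of lowest and highest share. Replicate numbers of the P0 and adult libraries are those of the labels. Counts of the RNA samples were not used, and sequences were not analysed, since no mm9 genome was at hand.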

Additional observations from a re-analysis of the deposited data

Results flagged for a closer look

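At P0 the classes of the 2 factors differed in opposite ways in the 2 lowest parts by E14 fold. The values are the share found in a P0 library of the same factor among E14 peaks with the other factor, minus that among peaks without it, in percentage points. In the lowest part, Otx2 peaks gave −9.01 and −10.8 (replicates 1 and 2) and BCOR peaks gave 13.5 and 22.4. In the next part, Otx2 peaks gave −6.68 and −7.02 and BCOR peaks gave 10.5 and 21.9. In the part above it, Otx2 peaks gave −1.71 (−4.93 to 1.80) and −1.85 (−4.73 to 1.34), and these intervals reached both signs. BCOR peaks gave 12.9 and 19.9 there. In the highest part all values were positive, at 3.59 and 5.49 for Otx2 and 10.1 and 9.72 for BCOR. Both replicates of a factor had the same sign each time, but over the same E14 peaks. The difference between the factors was not tested.

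Peaks outside chromosomes 1 to 19 also overlapped. On chromosome X, 106 of 238 BCOR peaks (44.5%) met an Otx2 peak and 105 of 160 Otx2 peaks (65.6%) met a BCOR peak. On chromosome Y, 5 of 6 BCOR and 5 of 6 Otx2 peaks did. On the mitochondrial chromosome, 5 of 7 BCOR and 6 of 7 Otx2 peaks did. On unplaced sequence, 49 of 136 BCOR peaks (36.0%) and 51 of 70 Otx2 peaks (72.9%) did.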

How the results depend on the processing

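Of 85 values under the alternatives, 53 kept their sign and stayed within the interval of the reported value, 27 kept their sign and left it, and 5 changed sign. The cause of these shifts was not tested. Depth is unknown, 1 library stands for each factor at E14, and joining peaks within 150 bp changed nothing because there were none. The values from joining peaks are counted among the 53 although they could not move. No paired analysis was possible because each factor had 1 library at E14 and no result came from a test.

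Requiring that most of the shorter peak (at least 50% of it) overlap gave shares of 50.3% for BCOR and 63.8% for Otx2. Summits within 100 bp as the rule gave shares of 35.4% and 44.7%, width differences of 112 and 31 bp, a summit distance of 33 bp, and P0 differences of 23.9 points for BCOR and 4.87 for Otx2. A q-value of at most 0.01 gave a BCOR share of 53.8% and a difference in the distance to the next Otx2 peak of −0.233 kb, against 3.62 kb. With the 4000 best peaks of each list, the shares were 58.7% and 58.8%, the width differences 77.5 and 31 bp and the summit distance 37 bp. Distances to the next peak then differed by 5.95 kb for BCOR, against −4.15 kb, and by −17.4 kb (−32.4 to −4.94) for Otx2. The range over chromosomes was 15.4 points, against 8.45, and the P0 differences were 11.7 and 3.95 points.

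The 3 alternatives added were chosen after seeing the data. Leaving out peaks with a −log10 q-value over 500 moved no value out of its interval. Without places found in all 10 lists, the shares were 49.3% and 63.3%, the width differences 142 and 61 bp, and the P0 differences 24.8 and −0.60 points. This alternative left out shared peaks only, 521 of BCOR and 522 of Otx2, all of which met every P0 list. The shares and the P0 differences could therefore only fall, and the changed sign for Otx2 came from cutting that class alone. Averaged within parts by fold, the width differences were 86.1 and 24.2 bp and the P0 differences 13.1 and −5.71 points. Using 1 P0 replicate of the same factor at a time, the BCOR difference was 28.5 to 34.8 points, and the Otx2 difference 2.05 to 3.20 points.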
